A study of Mus musculus with 6 samples.

Results

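Accessible chromatin was examined at the Ifitm gene cluster of mouse chromosome 7, in 17 ATAC-seq peaks out of 43020 in the whole table. The members were all peaks that overlap chromosome 7 from 148050000 to 148260000 (genome build mm9), an interval placed around Ifitm3, which lies at about 148195500 to 148196700. The interval, which holds a stretch of 6 consecutive tested peaks called higher in tumour-derived lines, was chosen with results of these same libraries known. Group differences at the members are therefore given as a description, without a p-value. Numbers 1 to 17 below give the order of the peaks along the chromosome.

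All libraries came from colon cancer organoids of the mouse with the genotype AKP, which the labels give as an abbreviation alone. The naive group consisted of 3 libraries from AKP organoids that had not been in a mouse. The primary tumour group consisted of 3 libraries from AKP organoid lines grown from tumours that formed after colonoscopic transfer of naive AKP organoids into the colon of C57Bl6 mice with an intact immune system, and passaged until cancer cells alone were present. Growth in the mouse and later passage in culture are shared by all 3 libraries and cannot be told apart. The labels do not say whether the libraries of a group came from separate cultures, tumours or mice, so the spread between them may be technical. The titles of the primary tumour libraries each carry a different identifying number, whose meaning is not explained. The age of the mice is not given in the labels.

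Ifitm3, Ifitm2 and Ifitm1 encode small membrane proteins that interferons induce and that hinder the entry of many enveloped viruses into cells. Ifitm3 and Ifitm2 act mainly at endosomal membranes and Ifitm1 mainly at the cell surface, while Ifitm5 (also called Bril) is known as a gene of bone-forming cells. Interferons act on such genes through STAT and IRF proteins bound to the interferon-stimulated response element (ISRE) of their promoters. Several Ifitm genes are also known for high expression in colorectal tumours with active Wnt signalling.

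In the RefSeq annotation of GRCm38.p6, the genes follow each other as Nlrp6, Pgghg, Ifitm5, Ifitm2, Ifitm1, the pseudogene Gm7514, the noncoding RNA gene Gm33504, Ifitm3, Ifitm6, the noncoding RNA gene Gm39114, B4galnt4, Pkp3 and Sigirr. That build differs from the one of the peaks, so the table served for the order of the genes and no peak was placed on Ifitm1, Ifitm2, Ifitm5 or Ifitm6. By the approximate position of Ifitm3, peaks 1 to 10 lay on the side of Ifitm5, Ifitm2 and Ifitm1, peak 11 overlapped the gene, and peaks 12 to 17 lay on the side of Ifitm6. Peak 11 ends at 148195697, inside the approximate bounds of the gene. Ifitm3 is read from the minus strand, so peak 11 reached the end of the gene and none of the 17 peaks covered its start. Of 28 consecutive peak numbers between the first and the last member, 11 had no row in the table.

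The promoters of all 5 Ifitm genes were matched in RefSeq (GRCm38.p6). That of Ifitm3 is shown because peak 11 overlaps the end of that gene, although no member covers its start. Those of Ifitm2 and Ifitm1 are shown as promoters of the other interferon-induced genes named above. Where the promoters shown lie relative to the peaks is known for Ifitm3 alone. Each is printed from 100 bases before the annotated start to 50 bases after it, 5′ to 3′, with the ISRE core in capitals (GAAA and, after any 2 bases, again GAAA). They lie on the minus strand at chr7:141010695-141010844 for Ifitm3, on the minus strand at chr7:140955912-140956061 for Ifitm2 and on the plus strand at chr7:140967976-140968125 for Ifitm1.
Ifitm3: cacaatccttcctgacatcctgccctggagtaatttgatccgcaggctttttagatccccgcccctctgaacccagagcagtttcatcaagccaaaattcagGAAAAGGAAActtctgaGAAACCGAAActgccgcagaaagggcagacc
Ifitm2: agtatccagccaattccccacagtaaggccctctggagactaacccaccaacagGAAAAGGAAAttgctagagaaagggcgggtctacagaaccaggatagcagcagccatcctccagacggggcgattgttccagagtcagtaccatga
Ifitm1: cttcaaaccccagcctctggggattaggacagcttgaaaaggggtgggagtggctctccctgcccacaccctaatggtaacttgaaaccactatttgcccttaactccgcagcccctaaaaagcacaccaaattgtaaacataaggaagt

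In the full 300 bases (250 before the start and 50 after), the Ifitm3 promoter held 2 matches of the ISRE core, at positions 3 to 12 and 20 to 29 counted from the first transcribed base. Ifitm2 held 1, at positions -46 to -37, and no match was found in the windows of Ifitm1, Ifitm5 and Ifitm6. Of 32851 RefSeq promoters of the same length, 3.44% held this motif on either strand. The STAT motif GAS (TTCNNNGAA) was matched once in Ifitm3, where it overlaps the second ISRE core, and once in Ifitm6, against 8.30% of all promoters. A SOX core (AACAAT) was matched once in Ifitm2, on the minus strand, against 10.7% of all promoters. An AP-1 motif (TGANTCA) was matched once in Ifitm3, against 7.81%. These are matches of letters on either strand and were not tested as binding sites.

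Accessibility was higher in the lines from primary tumours at 10 peaks in the middle of the interval. Of the 17 peaks, 15 passed the filter on low counts, 10 of these were called higher by edgeR (quasi-likelihood test, adjusted p under 0.05 over all 36179 tested peaks) and 5 were not called. Over all tested peaks, 8.00% were called higher and 6.40% lower. The members were chosen with that comparison known, so their share supports nothing further. With naive replicate 2 left out, the calls over all peaks fell from 2893 to 1366 higher and from 2317 to 849 lower, and 7 members were called. With primary tumour replicate 2 left out, 6 members were called. No member was called lower by edgeR, where 0 were lower at an unadjusted p under 0.05, or by DESeq2. The share of all tested peaks that were lower at an unadjusted p is not given here. The median log2 fold change, primary tumour over naive, was 1.56 over the 15 tested members and -0.01 over all tested peaks.

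At 11 of the 15 tested members the lowest primary tumour library exceeded the highest naive one, a separation found at 15.5% of all tested peaks. The opposite separation was found at none of the members and at 15.3% of all tested peaks. The groups overlapped at the other 4 tested members and at both untested ones. The called members formed 3 stretches, with peak 4 alone, the 6 peaks from 6 to 11 and the 3 peaks from 14 to 16, over 102.7 kb from 148132806 to 148235508. Signal is given below as CPM, the reads of a peak per 1000000 reads in tested peaks after TMM scaling. The libraries held between 1185356 reads in peaks (naive replicate 1) and 5987545 (naive replicate 2), of which 312 to 1512 lay in the 17 members.

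**Figure D1:**
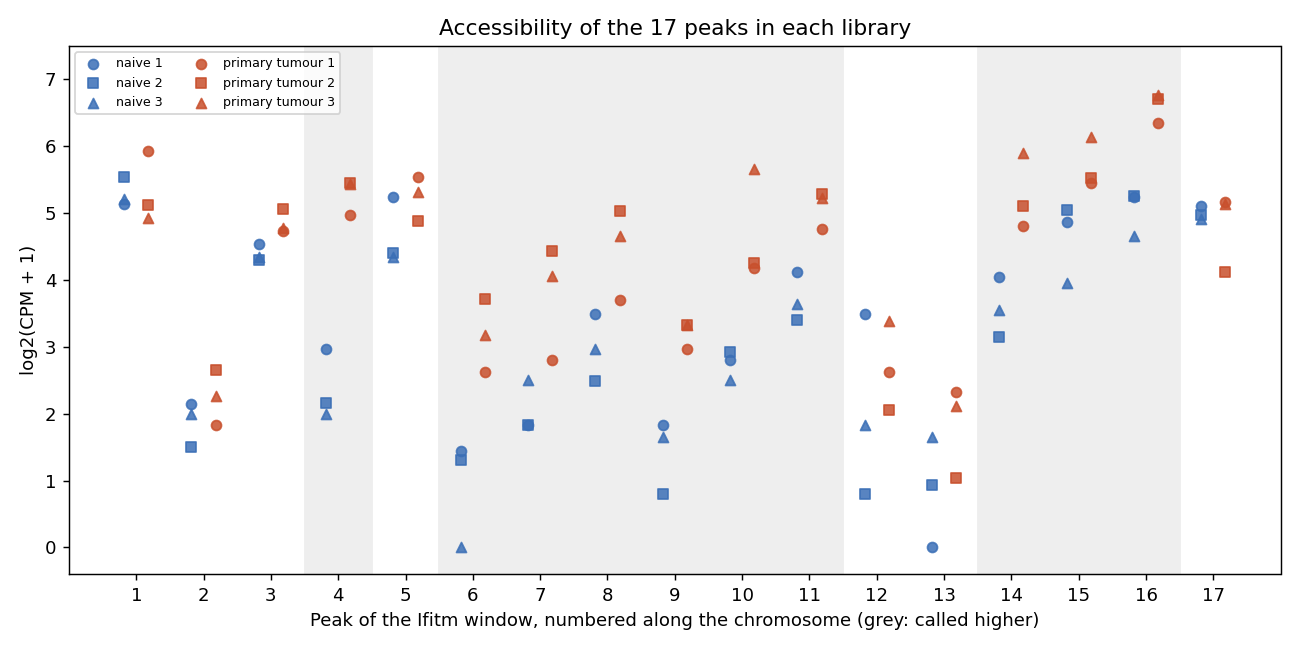
Level of each of the 17 peaks as log2(CPM + 1) (vertical axis), in order along the chromosome (horizontal axis), with 1 point per library; naive libraries are blue, primary tumour libraries orange, and grey bands mark the 10 peaks called higher. At peaks 4, 6 to 11 and 14 to 16 every primary tumour library is above every naive library, and at peaks 1 and 17 the groups overlap.

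Peak 4 (148132806 to 148133384), on the side of Ifitm5, Ifitm2 and Ifitm1, had the largest fold change of the members with all libraries, and ranked behind peak 6 without naive replicate 2 (log2 values of 3.07 and 3.64). It was at 6.86, 3.49 and 2.99 CPM in naive replicates 1, 2 and 3 and at 30.2, 42.9 and 42.2 CPM in primary tumour replicates 1, 2 and 3. The groups were far apart, with 7 to 19 reads in naive libraries and 81 to 106 in primary tumour lines. The mean rose from 4.45 ± 2.11 to 38.4 ± 7.11 CPM (SD, n = 3 each). The fitted difference was 9.45-fold, or 3.24 on the log2 scale (SE 0.39). Per kb of peak, it was the most accessible member in primary tumour lines, at 66.5 CPM per kb against 7.70 in naive organoids. In naive organoids the highest member per kb was instead peak 1, at 39.7 CPM per kb.

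Neither of the peaks directly beside peak 4 was called. Peak 3 (148127322 to 148128170) was at 22.3, 18.7 and 19.2 CPM in naive replicates 1 to 3 and at 25.7, 32.3 and 26.6 CPM in primary tumour replicates 1 to 3. All 3 primary tumour values were above the naive ones, but the log2 fold change was 0.50 (SE 0.30) and the peak was not called. Peak 5 (148140612 to 148142390) was at 36.9, 20.2 and 19.2 CPM in naive and at 45.6, 28.6 and 38.9 CPM in primary tumour libraries. Here the groups overlapped, with naive replicate 1 above primary tumour replicate 2, and the log2 fold change was 0.64 (SE 0.30).

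The stretch of 6 called peaks ran from 148148403 up to Ifitm3, and was low in naive organoids. Peak 6 (148148403 to 148148822) had 2, 8 and 0 reads in naive replicates 1 to 3 and 18, 23 and 17 in primary tumour replicates 1 to 3. In CPM these were 1.72, 1.47 and 0 against 5.13, 12.2 and 8.06, and 3 reads, the limit that a count of 0 allows, would be 1.28 CPM in naive replicate 3. Its log2 fold change of 2.92 (SE 0.77) therefore rests on few naive reads, and without naive replicate 2 it was 3.64. Peak 9 (148173088 to 148173586) was similarly sparse, at 2.57, 0.735 and 2.14 CPM in naive and 6.85, 9.00 and 9.01 CPM in primary tumour libraries (log2 fold change 2.38, SE 0.68).

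Peaks 7 and 8 shared an order of the primary tumour libraries, with replicate 2 highest and replicate 1 lowest. The same order was found at peaks 4, 6 and 11. Peak 7 (148159224 to 148159842) was at 2.57, 2.57 and 4.70 CPM in naive replicates 1 to 3 and at 5.99, 20.6 and 15.7 CPM in primary tumour replicates 1 to 3. Peak 8 (148166474 to 148168381) was at 10.3, 4.59 and 6.83 CPM in naive and at 12.0, 31.8 and 24.2 CPM in primary tumour libraries. At both, primary tumour replicate 1 lay just above the highest naive library and replicates 2 and 3 lay far above it. Their log2 fold changes were 2.07 (SE 0.56) and 1.73 (SE 0.45). Without primary tumour replicate 2, the call was lost at peaks 6, 7, 8 and 9, with log2 fold changes of 2.57, 1.67, 1.39 and 2.30. Without naive replicate 2 it was lost at peaks 7, 8 and 9 (1.83, 1.42 and 1.81), without naive replicate 3 at peak 6 (2.38) and without primary tumour replicate 3 at peak 9 (2.31).

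The 2 peaks nearest to Ifitm3 on that side were higher in every primary tumour library. Peak 10 (148189975 to 148190652), which ends 4848 bp from the gene, was at 6.01, 6.61 and 4.70 CPM in naive and at 17.1, 18.0 and 49.3 CPM in primary tumour replicates 1 to 3. Primary tumour replicate 3 stood far above the other 2 there, and the log2 fold change of 2.25 (SE 0.44) became 1.59 without it, still called. Peak 11 (148194389 to 148195697) reached the end of Ifitm3 by the approximate bounds of the gene, and did not cover its start. It was at 16.3, 9.55 and 11.5 CPM in naive and at 26.2, 38.1 and 36.5 CPM in primary tumour libraries. The mean rose from 12.5 ± 3.47 to 33.6 ± 6.44 CPM (SD, n = 3 each). The fitted difference was 2.80-fold, or 1.49 on the log2 scale (SE 0.33), and the groups did not overlap.

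The next peak, on the side of Ifitm6, was not called. Peak 12 (148202404 to 148202854) was at 10.3, 0.735 and 2.56 CPM in naive and 5.13, 3.18 and 9.49 CPM in primary tumour libraries. Naive replicate 1 was the highest of all 6, from 12 reads, and the log2 fold change of 0.71 (SE 0.77) was 1.98 without that library and 0.01 without naive replicate 2, not called in any of these. Peak 13 (148212000 to 148212237), the narrowest member at 237 bp, held 0 to 14 reads per library and was not tested. The other untested member, peak 2 (148094468 to 148094837), held 4 to 10 reads per library.

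Accessibility was higher in the tumour-derived lines again at peaks 14, 15 and 16, from 148222667 to 148235508. Peak 14 (148222667 to 148224042) was at 15.4, 7.90 and 10.7 CPM in naive and at 27.1, 33.3 and 58.8 CPM in primary tumour replicates 1 to 3, a log2 fold change of 1.89 (SE 0.36). Peak 15 (148227389 to 148228841) was at 28.3, 32.2 and 14.5 CPM in naive and at 42.5, 45.0 and 69.7 CPM in primary tumour libraries. It had the smallest fold change of the called members, with a log2 value of 1.05 (SE 0.30), and lost its call without naive replicate 3 (0.76) or primary tumour replicate 3 (0.81). Peak 16 (148232738 to 148235508), the widest member at 2770 bp, was at 36.9, 37.3 and 24.3 CPM in naive and at 80.1, 103.7 and 108.1 CPM in primary tumour libraries. Its mean rose from 32.8 ± 7.37 to 97.3 ± 15.1 CPM (SD, n = 3 each). The log2 fold change was 1.56 (SE 0.23), and it gave the smallest SE of the called members.

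At the ends of the interval the groups overlapped, and neither peak was called. Peak 1 (148067559 to 148068529) was at 34.3, 45.4 and 35.9 CPM in naive and 60.2, 33.9 and 29.4 CPM in primary tumour libraries, with a log2 fold change of 0.10 (SE 0.28) that was -0.30 without primary tumour replicate 1. Peak 17 (148246128 to 148247280) was at 33.5, 30.5 and 29.0 CPM in naive and 34.8, 16.4 and 34.2 CPM in primary tumour libraries, with a log2 fold change of -0.10 (SE 0.30) that was 0.16 without primary tumour replicate 2. The first peaks outside the interval, from 148042074 to 148043541 and from 148264892 to 148266398, had log2 fold changes of -0.10 (SE 0.20) and -0.25 (SE 0.21). Neither was called.

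**Figure D2:**
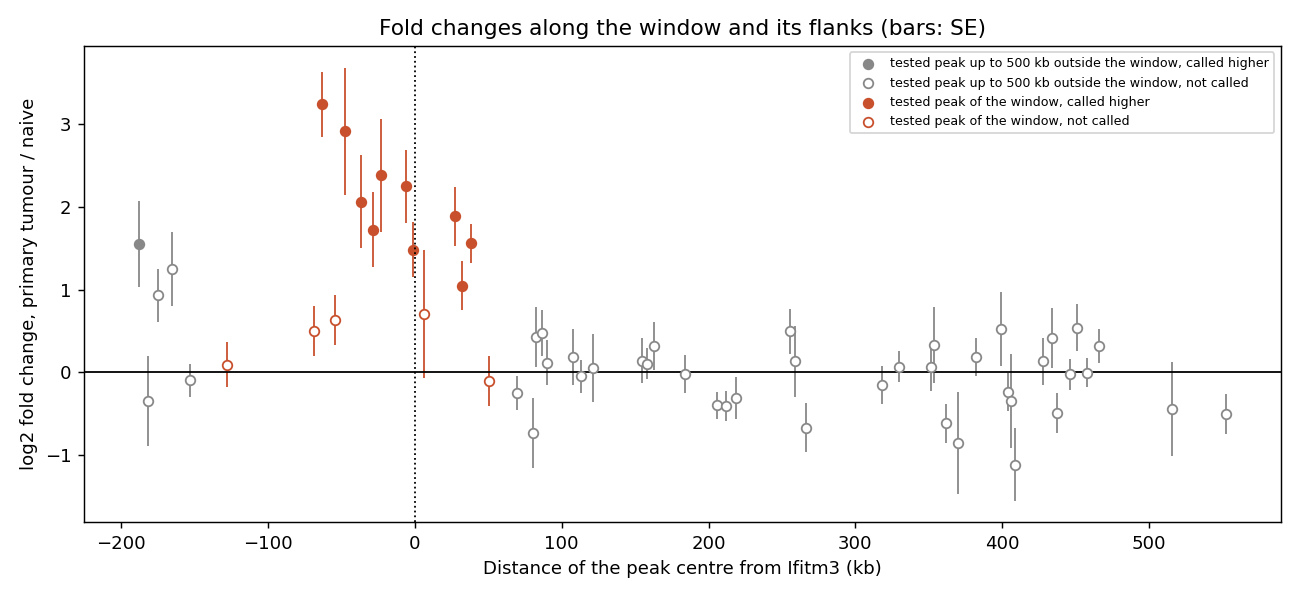
Log2 fold change of primary tumour over naive (vertical axis, bars are SE) against the distance of the peak centre from Ifitm3 in kb (horizontal axis), for the 15 tested members (orange) and the 43 tested peaks up to 500 kb outside the interval (grey); filled points were called higher. The called members lie between -63.0 and 38.0 kb, the grey points above 50 kb scatter around 0, and of the 5 grey points on the far left 3 lie between 0.93 and 1.55.

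Beyond the interval, 1 of 43 tested peaks within 500 kb was called higher (2.33%, against 8.00% over all tested peaks) and none was called lower by edgeR or DESeq2, with 5 lower at an unadjusted p under 0.05. On the side of Ifitm6, none of 38 was called higher by edgeR or DESeq2 and 0 were higher at an unadjusted p under 0.05, with log2 fold changes from -1.11 to 0.54. The peak called higher lay on the other side, from 148007306 to 148008761, where just 5 peaks were tested, and is named for being the only one called. It was at 8.58, 2.39 and 5.13 CPM in naive and 14.0, 10.1 and 18.0 CPM in primary tumour libraries (log2 fold change 1.55, SE 0.52). With it, 3 of these 5 were higher at an unadjusted p under 0.05. For no count at an unadjusted p in this paragraph is the share over all tested peaks given here. Whether such counts differ from that share was not tested, and nothing was read from them. All primary tumour libraries exceeded all naive ones at 3 of these 5 and at 3 of the 38 on the side of Ifitm6. Over all tested peaks this separation was found at 15.5%. The other 2 of these 5 with both traits, not called, were the peaks from 148020674 to 148021776 (log2 fold change 0.93, SE 0.32) and from 148029911 to 148031132 (1.25, SE 0.45).

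The larger surroundings gave no shift of similar size. The median over the other 180 tested peaks of the same 10 Mb, as log2(CPM + 1) minus the naive mean, was 0.01, 0.14 and 0.07 for the primary tumour libraries 1 to 3 and between -0.05 and 0.06 in naive libraries. The tested members had medians of 0.88, 1.52 and 1.67 in the same libraries and between -0.21 and 0.39 in naive libraries. Over the other 2143 tested peaks of chromosome 7, medians were between -0.01 and 0.08 in all 6 libraries. With an offset for each library and 10 Mb window, all 10 members called in the main analysis were again called.

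Summed over all 17 members, accessibility was 267.7, 224.7 and 193.5 CPM in naive replicates 1, 2 and 3 and 431, 475 and 567 CPM in primary tumour replicates 1, 2 and 3. Every primary tumour library was above every naive library, with means of 491 ± 69.4 and 229 ± 37.3 CPM (SD, n = 3 each), a ratio of 2.15. The 10 called members, chosen by their difference, summed to 105 ± 22.3 CPM in naive organoids, against 343 ± 84.8 CPM in the tumour-derived lines. The other 7 members summed to 123 ± 15.5 and 148 ± 28.7 CPM in the same order, and there the groups overlapped. The ratio was 2.15 for peaks 1 to 11, which lie below Ifitm3 or overlap it, and 2.14 for peaks 12 to 17, which lie above it; the difference was not tested.

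**Figure D3:**
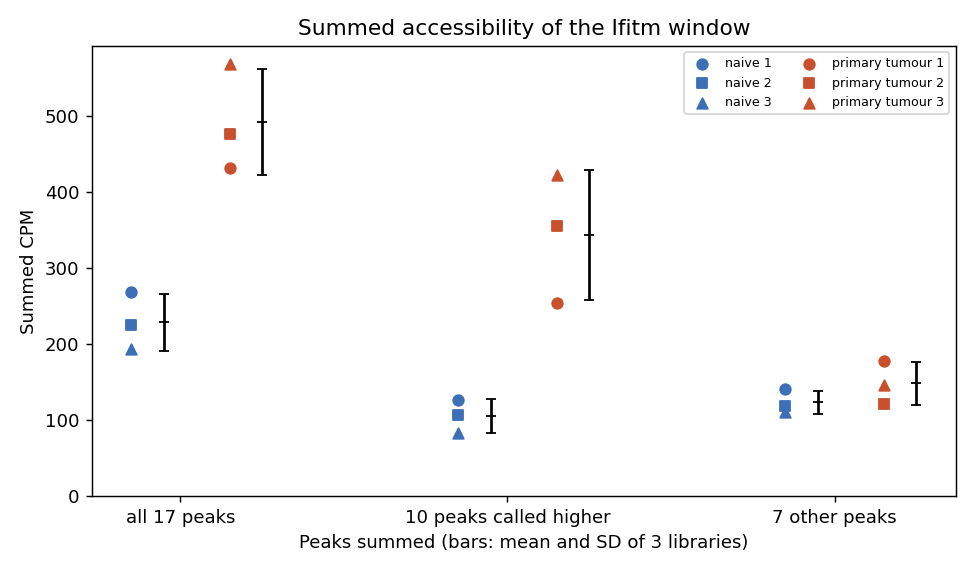
Summed CPM (vertical axis, from 0) over all 17 peaks, the 10 called higher and the 7 others (horizontal axis), with 1 point per library and a bar for the mean and SD of 3 libraries. The primary tumour libraries sit between 431 and 567 CPM for all 17 peaks, above the naive range of 193.5 to 267.7, and the groups overlap for the 7 others.

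The make-up of the signal also differed between the groups. Peaks 1 and 17, at the ends, gave 17.2% ± 3.87 and 13.7% ± 1.26 of the summed CPM of the interval in naive organoids (SD, n = 3) and 8.76% ± 4.61 and 5.85% ± 2.31 in primary tumour lines. Peak 4 gave 1.89% ± 0.586 in naive organoids and 7.82% ± 1.06 in primary tumour lines. Peak 15 kept a like share in the means, 10.8% ± 3.41 and 10.5% ± 1.53. Shares of a fixed total move against each other, so a lower share at the ends goes with the higher level elsewhere and shows no loss of signal there.

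**Figure D4:**
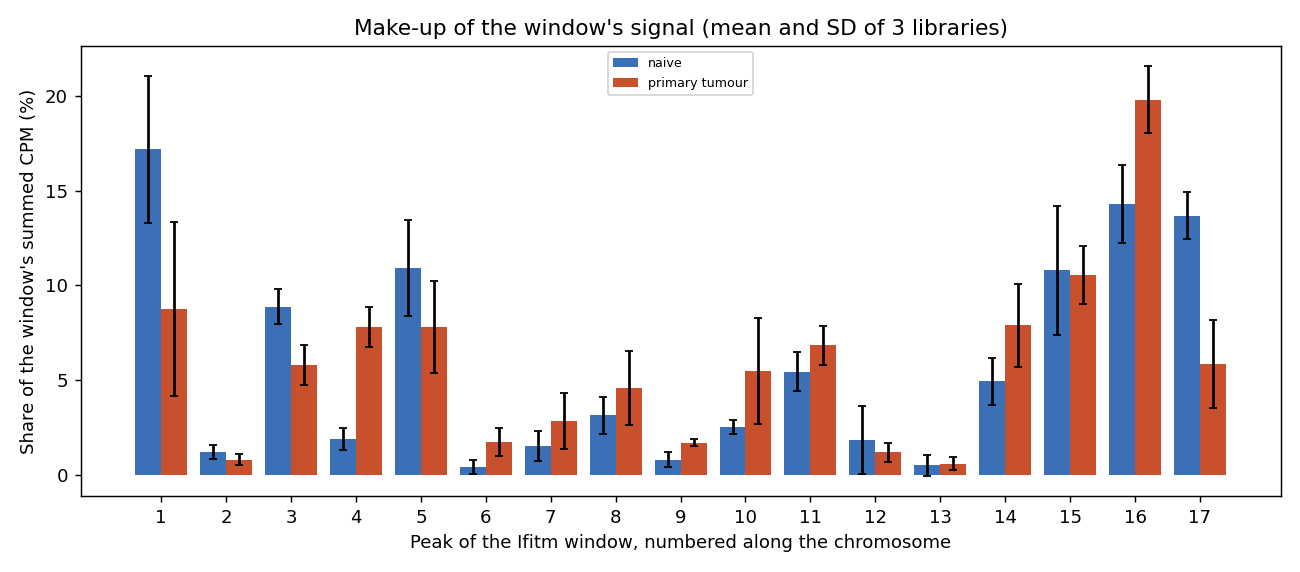
Share of the summed CPM of the interval held by each of the 17 peaks, in percent (vertical axis), in order along the chromosome (horizontal axis), as mean and SD of 3 naive (blue) and 3 primary tumour (orange) libraries. Peak 16 holds the largest share in primary tumour lines (19.8%), and peak 1 in naive organoids (17.2%).

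The 3 primary tumour libraries differed in level at these peaks. Primary tumour replicate 1 was the lowest of the 3 at all 10 called members, while replicates 2 and 3 were each the highest at 5. Among all tested peaks replicate 1 was the lowest of the 3 at 35.4%, and among all peaks called higher at 36.0%. At the 7 other members it was the lowest at 2 and the highest at 4. The highest of these libraries was between 1.32 times (peak 9) and 3.45 times (peak 7) the lowest among the called members. The labels do not say how these libraries relate to tumours or mice, so the differences between single libraries were not tested and may be technical. The members share these libraries and are not independent of each other.

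Primary tumour replicates 2 and 3 were close at peak 4 (42.9 and 42.2 CPM) and peak 9 (9.00 and 9.01 CPM), and replicate 3 stood out at peak 10 (49.3 CPM against 17.1 and 18.0) and at peak 14 (58.8 CPM against 27.1 and 33.3). Replicate 2 was the highest of the 3 at peaks 4, 6, 7, 8 and 11, all on the side of Ifitm5, Ifitm2 and Ifitm1 or overlapping the end of Ifitm3. Replicate 3 was the highest at peaks 9, 10, 14, 15 and 16.

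In width and score the medians of the members were somewhat above those of the table. Their widths ran from 237 to 2770 bp with a median of 848 bp, against 746 bp over all peaks. The score that the authors attached to each peak, of undefined meaning here, ran from 5.37 to 97.7 with a median of 25.9, against 21.8 over all peaks. The median of the naive mean was 11.3 CPM over the 15 tested members, 8.27 CPM over all peaks called higher and 15.6 CPM over all tested peaks. The median of the primary tumour mean was 28.5, 27.4 and 16.5 CPM in the same order. Neighbouring members were separated by 3347 to 32485 bp.

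Peaks elsewhere were ranked by how closely they followed the summed interval over the libraries. Likeness was taken as the root mean square difference over the 6 libraries between centred log2(CPM + 1) values of a peak and of the summed interval, among 15303 tested peaks outside it with a mean of at least 20 CPM. The median difference was 0.699, and the 5 smallest ran from 0.0533 to 0.123. The closest peak, on chromosome 15 from 58042895 to 58044248, was at 28.3, 23.3 and 18.8 CPM in naive replicates 1 to 3 and at 44.8, 48.7 and 64.0 CPM in primary tumour replicates 1 to 3. The other 4 were chr16:21339275-21340716, chr2:102798411-102799980, chr2:4983854-4985800 and chr9:75084398-75085185. With 6 libraries and so many peaks, close matches can arise by number alone, and no shared function was read from them.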

How the data were processed

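Accessible DNA was profiled by ATAC-seq, in which the Tn5 transposase cuts and tags accessible chromatin, in 3 naive and 3 primary tumour libraries grouped by sample title. The authors deposited raw read counts per peak for 1 peak set shared by all libraries, per the file itself. The build was mm9, and Bowtie, Picard, SAMtools, MACS2 and bedtools were listed without versions or roles, per the submitters' processing notes. Duplicate treatment, correction of read ends for the transposase and the choice of listed peaks are not given in these sources. Each can change counts, and their effect was not tested.

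From the counts, peaks were filtered with filterByExpr defaults, scaled by TMM and tested across all peaks with edgeR 4.0.16 (robust quasi-likelihood F test, 2-sided, R 4.3.3, group as the sole term), with Benjamini-Hochberg adjustment and calls under 0.05. SE was the absolute log2 fold change over the square root of F. All members were named by rule, and those with a mean of at least 10 reads were given per library. The members, lists and rules were chosen with earlier results of these data known. Alternatives were DESeq2 1.42.0, other scalings, offsets and filters (1 asking for at least 20 reads in 3 libraries), a replicate block and each library left out. Counting limits cover counting error only. No annotation of mm9 was used, so the interferon gene list, cell type markers and peak sequences were not analysed here.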

Additional observations from a re-analysis of the deposited data

How the results depend on the processing

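All 14 alternative settings called 6 to 10 members higher and 0 lower. Other scalings, trended or 10 Mb offsets, no filter and DESeq2 each called the same 10, and a filter of at least 20 reads in 3 libraries called all 8 of these that it kept. Leaving out 1 library gave 6 to 10 calls among the members, with 6 without primary tumour replicate 2, and 2215 to 5440 calls over all peaks, against 5210, with the lowest value without naive replicate 2. The cause was not tested. Of 207 pairs of a tested member and an alternative, 192 kept direction and call, 13 lost the call and 2 changed direction, both at peaks that were not called (-0.30 at peak 1 without primary tumour replicate 1, where leaving out others gave up to 0.30, and 0.16 at peak 17 without primary tumour replicate 2, where others gave down to -0.27). The log2 ratio of the summed interval was 1.10 and lay between 0.99 and 1.22 in all alternatives run for it.

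With the replicate number as a block, 8 of the 10 members were called, and peaks 9 (2.38) and 15 (1.08) lost the call with fold changes that barely moved; 3539 peaks were called in all. The labels do not state that the number links libraries, so the main analysis had no such block. Across peaks, libraries with the same number deviated from their group means with correlations of -0.24, -0.11 and 0.01. Between libraries with unlike numbers the correlations ran from -0.20 to 0.26. Deviations from the mean of so few libraries depend on each other, so these values do not decide whether the number links them. Depth limits peaks 2, 6, 9, 12 and 13, which averaged 5.5 to 12 reads per library.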
